A study of Mus musculus with 2 samples.

Results

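The natriuretic peptide system was examined in RNA sequencing of mouse cardiac ventricles, through 8 genes chosen by name: the peptides Nppa, Nppb and Nppc, the receptors Npr1, Npr2 and Npr3, and the processing proteases Corin and Furin. Each symbol matched 1 row, so the 8 genes are 8 of the 38355 genes listed in the authors' deposited table. The mice had a C57BL/6 background and were 16 weeks old. The labels name 2 samples, 1 per group: vTBX5KO, with Myh6-MerCreMer together with Tbx5LDN/LDN, and Flox, with Tbx5LDN/LDN and no Cre transgene in its label. Myh6-MerCreMer is a transgene that places an inducible Cre recombinase under a cardiomyocyte promoter, so the deletion concerns cardiomyocytes and the other cells of the ventricle keep the allele. The treatment text is the same for both samples: from an age of 12 weeks, TX was given at a daily 30 mg/kg over 3 days, and tissue was taken 4 weeks later. The Tbx5LDN/LDN allele and TX were therefore shared by both groups. The sources used here give neither the number of animals nor any pooling.

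The deposited table compares a group B with a group A, and no label or header used here says which letter is the knockout. Each difference below is group B over group A, and the direction relative to genotype is not known. In the authors' deposited table Tbx5 stood at a log2 fold change of 0.92 (standard error no larger than 0.30, adjusted p = 0.0575), and this value over the whole gene does not settle the letter. Behind the table lay 6 libraries, 3 of each letter, named B1 to B3 and A1 to A3 from the deepest to the shallowest. Their size factors, which stand for relative depth, ran from 0.89 to 1.56 in group B and from 0.61 to 1.16 in group A. Of 13230 genes with an adjusted p, 3.98% were called at an adjusted p under 0.05, 2.49% lower and 1.5% higher in group B. The share called in either direction was 2.22% under 0.01 and 5.91% under 0.1. The ventricular cardiomyocyte markers were high, and the authors' deposited table lists all 8 of them between 30950 and 1263444 normalized counts.

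Natriuretic peptides are hormones that the heart releases when its walls are stretched. Nppa encodes atrial natriuretic peptide, made mostly by atrial cardiomyocytes in the adult, and Nppb encodes B-type natriuretic peptide, whose ventricular transcript is widely used as a sign of cardiac load. Corin, a membrane protease of cardiomyocytes, cuts the atrial precursor into its active form, and furin is a general precursor-cutting enzyme that can process the B-type and C-type precursors. The peptides act through Npr1 and Npr2, receptors that make the messenger cGMP when bound, while Npr3 takes the peptides up and removes them. Nppa is also a textbook target of Tbx5, which binds a T-box element in its promoter together with Nkx2-5.

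Tbx5 was the targeted gene, so T-box matches were sought in promoters read from RefSeq (GRCm38.p6). Printed are those of the 3 cardiomyocyte genes of the system that had the lowest fold changes. Which letter is the knockout was not known, but the fold changes and sequences were in view, so the choice was not blind. The capitals mark GGTGTG, the core of the T-box binding element, or its reverse complement. Each sequence is written in the direction of its gene and lies upstream of the start in RefSeq and in the deposited table. Nppa is chr4:148000472-148000721 on the plus strand, Nppb is chr4:147985650-147985787 on the plus strand, and Corin is chr5:72504541-72504790 on the minus strand.
Nppa: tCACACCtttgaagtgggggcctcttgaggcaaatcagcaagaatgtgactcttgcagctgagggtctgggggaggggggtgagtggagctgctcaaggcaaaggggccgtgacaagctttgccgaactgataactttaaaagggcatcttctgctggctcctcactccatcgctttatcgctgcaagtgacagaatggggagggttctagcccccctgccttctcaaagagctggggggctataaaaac
Nppb: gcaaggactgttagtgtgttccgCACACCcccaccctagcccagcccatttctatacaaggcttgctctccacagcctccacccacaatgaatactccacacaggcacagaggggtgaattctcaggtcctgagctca
Corin: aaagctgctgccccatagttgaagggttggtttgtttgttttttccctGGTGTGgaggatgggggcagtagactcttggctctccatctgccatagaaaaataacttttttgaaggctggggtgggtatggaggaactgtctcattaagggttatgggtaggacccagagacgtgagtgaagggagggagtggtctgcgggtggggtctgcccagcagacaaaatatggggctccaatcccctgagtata

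The match began 249 bases before the RefSeq start in Nppa, 227 bases before it in Nppb and 202 bases before it in Corin. Windows of 250 bases were searched on both strands for all 8 genes, and these 3 held GGTGTG while the 5 others held none. The same letters occur in 16.3% of 32851 promoter windows of that length, so a match is common. The motif and the 3 printed genes were chosen with the sequences and fold changes in view. A link between the matches and the fold changes was not tested. For Nppb the RefSeq start lies 112 bases downstream of the start in the deposited table, so matches closer to the RefSeq start than that lie inside the gene as the table gives it and outside the printed sequence. In Nppa the Nkx2-5 core AAGTG lay 239 bases before the start, and a further copy lay 65 bases before it. AAGTG is in 40.7% of all windows. The GATA core GATAA was matched at 2 places each in Nppa and Nppb. Any match is found in 22.6% of windows, and the share with as many as 2 was not computed. Nppb further held CATTCC, the core read by Tead factors, 105 bases before its RefSeq start on the reverse strand. That match, both GATAA matches and the TATAAA of Nppb lie within those 112 bases, and CATTCC is in 12.6% of windows. No window of the 8 genes matched the full consensus of the CArG box, the element of Srf, which is in 1.47% of windows. Looser forms of that element were not searched, so these windows may still hold one. The TATA core TATAAA was matched in Nppa, Nppb, Nppc and Furin and is in 12.4% of windows. No motif searched here overlapped another in the Nppa and Nppb windows. These are matches of letters, with no binding measured.

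In these ventricles the system was read mainly through the cardiomyocyte peptides and Corin, with the receptors far lower and Nppc close to absent. Levels were compared as mean normalized counts over all 6 libraries, from the authors' deposited table, per kilobase of exon in GENCODE M21. Nppa stood at 2433 per kilobase and Nppb at 2042, which ranked them 263 and 312 of 22999 genes with reads and a known length. Corin followed at 808 per kilobase. Npr2 was at 168, Npr3 at 116, Furin at 102 and Npr1 at 92.3 per kilobase, so the Nppa level was 26.4 times that of the receptor for its product. With the longest transcript as length, Npr2 was at 214, Furin at 164, Npr3 at 158 and Npr1 at 109, and the order of Npr3 and Furin turned round. Nppc was at 0.838 per kilobase. The table pools the groups in each mean, so no spread over samples can be given for these levels.

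**Figure D1:**
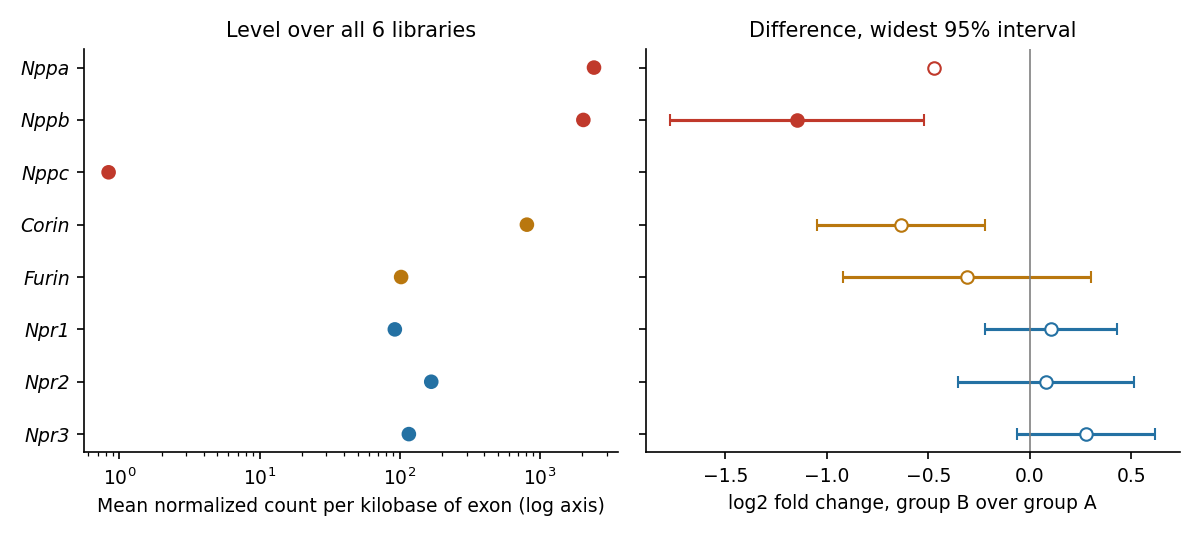
Left, mean normalized count per kilobase of exon over all 6 libraries (log axis); right, log2 fold change of group B over group A from the authors' deposited table, with the widest 95% interval that the adjusted p allows. The filled point is called (Nppb), open points are not, Nppa has no bar because it has no adjusted p, and Nppc has no point because its reads lay at or under the floor of 3 counts; the Nppb interval runs from -1.77 to -0.52.

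Nppb was the member called, and it was lower in group B. Of the 8 genes, 6 had an adjusted p. Of these, 1 was called lower, 0 were called higher and 5 were not called, against 2.49% lower among all tested genes. Nppb (ENSMUSG00000029019, chromosome 4, 147985788 to 147987205, GRCm38, plus strand) had a mean normalized count of 1595 and a log2 fold change of -1.15 in the authors' deposited table, a level 2.21-fold lower in group B. The standard error was no larger than 0.32, and the authors' deposited table gave an adjusted p of 0.0137. The mean and the fold together correspond to about 993 normalized counts in group B and 2197 in group A. These 2 levels are implied by the deposited values and were not read per library, and the deposited fold is shrunken towards 0. The widest 95% interval that the adjusted p allows, from the standard error bound on either side, reached from 0.293 to 0.698 times the group A level. Among the 13230 tested genes, 38 had a lower log2 fold change than Nppb. In tissue samples, fewer cells of a type and less RNA per cell cannot be told apart.

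Nppa, the neighbouring gene (ENSMUSG00000041616, chromosome 4, 148000722 to 148002079, GRCm38, plus strand), had the highest peptide level. The authors' deposited table gave a mean of 2104 normalized counts and a log2 fold change of -0.47. This corresponds to implied levels of 1762 in group B and 2446 in group A. As for Nppb, these levels rest on a shrunken fold and were not read per library. The table gives no adjusted p for Nppa, so no call and no error can be given. This was so for 194 genes with a mean above the lowest tested mean of 16.0, and 105 of these had a mean above 1000, against 2809 tested genes above 1000. DESeq2, named in the submitters' processing notes, can leave the p-value of a high gene empty when 1 library has an extreme count. Whether that happened for Nppa was not tested, because its reads per library could not be recovered.

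Nppc, the C-type peptide made mainly by endothelium, cartilage and brain, was at the limit of detection. It had 0, 1 and 1 reads in B1, B2 and B3, against 2, 0 and 1 reads in A1, A2 and A3. The groups overlapped, and both totals, 2 reads in group B and 3 in group A, lay at or under the floor of 3 counts, so no fold is given (exact permutation test on the 3 libraries of each letter, two-sided, p = 0.6, where the smallest possible p is 0.1). A difference in Nppc was not detectable at this depth.

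The proteases had values on the same side of 0 as Nppa and Nppb, and neither was called. Corin (ENSMUSG00000005220, chromosome 5, 72300025 to 72504473, GRCm38, minus strand) had the highest mean of the 8 genes in the authors' deposited table, 4362 normalized counts. The authors' deposited table put it at -0.64 on the log2 scale (standard error no larger than 0.21), and its adjusted p of 0.0606 missed the threshold. The widest 95% interval for Corin alone, without adjustment for the number of genes, ran from -1.05 to -0.22. Implied levels were 3417 in group B and 5308 in group A, again from a deposited fold that is shrunken towards 0. Furin (chromosome 7, 80388585 to 80405436, minus strand) had in the authors' deposited table a mean of 939 normalized counts, a log2 fold change of -0.31 and an adjusted p of 0.753, with an interval from -0.92 to 0.30. A difference of the size seen in Corin lies within that interval.

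The receptors had values slightly above 0 and none was called in the authors' deposited table. Npr1 (chromosome 3, 90450591 to 90465866, minus strand), the receptor of the atrial and B-type peptides, had in the authors' deposited table a mean of 441 normalized counts and a log2 fold change of 0.10, with an adjusted p of 0.882. Its interval from -0.22 to 0.43 corresponds to 0.859 to 1.34 times the group A level. Npr2 (chromosome 4, 43631935 to 43651244, plus strand), the receptor of the C-type peptide, stood at 0.08 with a mean of 784 and an adjusted p of 0.942, per the authors' deposited table. Its interval ran from -0.35 to 0.51 on the log2 scale. Npr3 (chromosome 15, 11839896 to 11905674, minus strand), the clearance receptor, had in the authors' deposited table a mean of 1091, a log2 fold change of 0.28 and an adjusted p of 0.498, with an interval from -0.06 to 0.62. Without Nppc, 4 of 4 peptide and protease genes had a log2 fold change below 0 and 3 of 3 receptors one above 0, beside 50.1% of all tested genes below 0. Of the 6 with a standard error bound, 4 lay within 2 bounds of 0, and no test of the difference between peptides and receptors was run. The 9 endothelial and endocardial markers, of cells known to express Npr1 and Npr3, had no call and a median log2 fold change of 0.05 in the authors' deposited table.

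**Figure D2:**
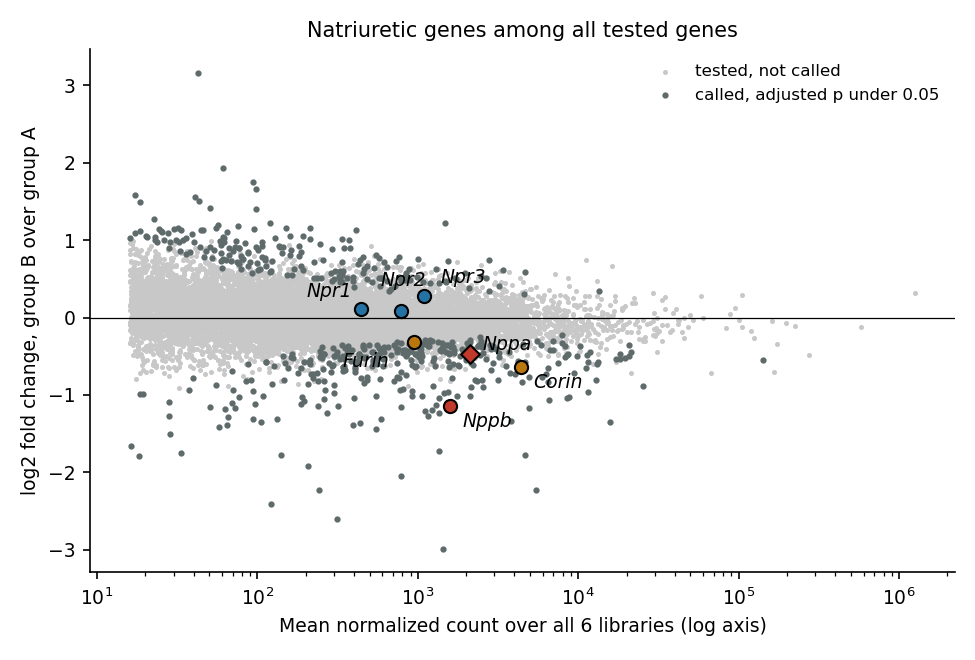
Log2 fold change of group B over group A against mean normalized count (log axis) for the 13230 genes with an adjusted p, from the authors' deposited table. Coloured points are the natriuretic genes above the lowest tested mean, red for peptides, orange for proteases and blue for receptors; Nppa is a diamond because it has no adjusted p, and Nppb at -1.15 lies among the called genes.

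Nppb and Nppa lie 13516 bases apart in the same direction, and their listed neighbours were not called. Upstream, 2510039O18Rik stood at a log2 fold change of -0.09, the collagen-modifying enzyme Plod1 at -0.33 and the mitochondrial fusion protein Mfn2 at -0.25, and their adjusted p-values were 0.874, 0.499 and 0.736 in the authors' deposited table. Downstream, the chloride transporter Clcn6 was at 0.07 with an adjusted p of 0.952, from the authors' deposited table, where the pseudogene Gm13207 is listed at 0. The antisense gene Gm13054 overlaps Nppa and had a mean of 2.28 normalized counts, 0.109% of the Nppa mean. The sources used here do not say whether reads were counted by strand. Over all 8 genes, the largest overlapping gene was AU023070 within Corin, at 0.354% of the Corin mean.

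**Figure D3:**
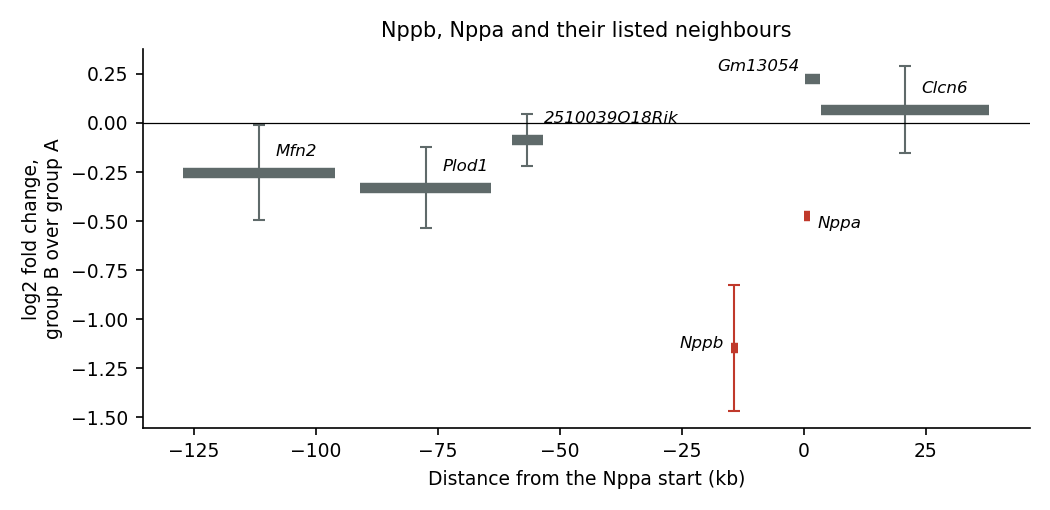
Log2 fold change of group B over group A for Nppb, Nppa (red) and their listed neighbours with reads (grey) against distance from the Nppa start in kilobases. Horizontal bars span each gene and error bars are 1 standard error bound where an adjusted p exists; Nppb at -1.15 lies below the 4 tested neighbours, which run from -0.33 to 0.07.

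Atrial markers had values below 0 in the same contrast, and those with recovered reads were uneven between libraries. Nppa, Nppb and Corin are also transcripts of atrial cardiomyocytes, so the atrial markers stand beside them here. Of 7 atrial markers, 6 had an adjusted p, and all 6 had a log2 fold change below 0, with a median of -0.21. Of these 6, 1 was called lower, against 2.49% called lower among all tested genes. None of the 7 markers was at 0, and means ran from 15.5 normalized counts for Bmp10 to 981 for the atrial light chain Myl7. For 2 of the 7, reads per library were recovered. Bmp10, a growth factor of the atria, had 2.56, 17.0 and 1.12 normalized reads in B1, B2 and B3, against 0, 0 and 72.5 in A1, A2 and A3. A3 thus held most of the Bmp10 reads, B2 held fewer, and the groups overlapped. The atrial kinase Sbk2 had 36.4, 15.5 and 37.0 normalized reads in B1, B2 and B3, against 81.3, 65.3 and 138 in A1, A2 and A3. These groups did not overlap, and the authors' deposited table called Sbk2 lower in group B, at -1.18 with an adjusted p of 0.00498. That call rests on these same libraries, so the separation adds no support to it. The share of all recovered genes without overlap was not computed. The main atrial genes Myl7, Myl4 and Sln were not called in the authors' deposited table, at -0.13, -0.13 and -0.11. Stard10 stood at -0.64 with an adjusted p of 0.0932 and Fam189a2 at -0.28 with one of 0.118, both from the authors' deposited table and neither called. An unadjusted p bound under 0.05 was found for 3 of the 6 tested atrial markers. The share of all tested genes under that bound was not computed, so this count has no background. Among the 8 ventricular cardiomyocyte markers, 6 lay below 0 with a list median of -0.08, and none was called. The lowest of them were Ryr2 at -0.71 and Myl2 at -0.70, with adjusted p-values of 0.0671 and 0.0572 in the authors' deposited table, beside -0.64 for Corin. The others lay nearer to 0 or above it. Tnni3 stood at -0.14, Myh6 at -0.13, Tnnt2 at -0.03, Actn2 at -0.01, Myl3 at 0.13 and Ttn at 0.31. The part of atrial tissue or of cardiomyocyte content in the Nppa, Nppb and Corin values was not tested. Of 7 conduction system markers, 6 were below 0 and 1, the T-type calcium channel Cacna1g, was called lower, at -1.15 in the authors' deposited table. The share called lower over all tested genes was again 2.49%.

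**Figure D4:**
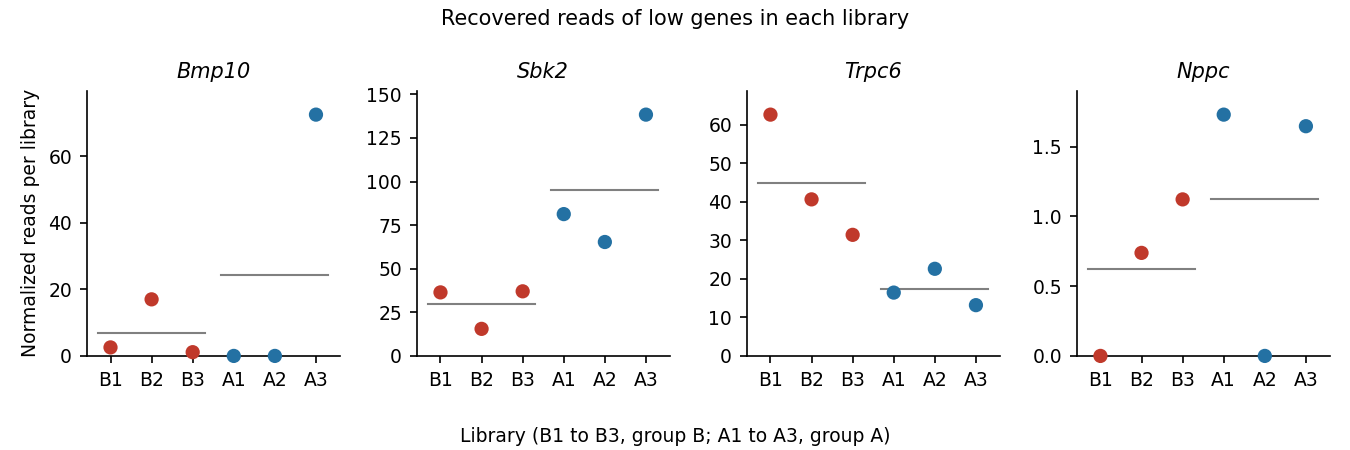
Normalized reads recovered in each library for 2 atrial markers (Bmp10, Sbk2), the cation channel Trpc6 and the peptide Nppc; each panel has its own linear axis from 0, red points are group B, blue points group A, and grey lines are the means of 3 libraries. Bmp10 reaches 72.5 in A3 and 0 in A1 and A2, while the Trpc6 libraries of group B, from 31.4 to 62.6, lie above those of group A, from 13.2 to 22.6.

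Downstream of the receptors, the called genes of cGMP signalling were higher in group B, while uncalled ones lay on both sides of 0. Of 21 tested cGMP effectors and phosphodiesterases, 3 were higher in group B, 0 lower and 18 not called, where 1.5% of all tested genes were called higher. In all, 14 lay above 0 and 7 below it, and the list median was 0.15 against -0.00 over all tested genes. Trpc6, a calcium-permeable channel that cGMP-dependent kinase inhibits, had 62.6, 40.6 and 31.4 normalized reads in B1, B2 and B3, against 16.4, 22.6 and 13.2 in A1, A2 and A3. The libraries did not overlap, the means were 44.9 ± 16.0 in group B and 17.4 ± 4.79 in group A (SD, n = 3 libraries), and the exact permutation p was 0.1, the smallest possible. The ratio of group means was 2.58, and it ran from 2.07 without B1 to 3.03 without A2. In the authors' deposited table Trpc6 had a log2 fold change of 1.00 with an adjusted p of 0.0228. Its library values were shown after that call on the same libraries was seen, so their separation adds no support. No share of recovered genes without overlap was computed. Pde5a, the phosphodiesterase that sildenafil inhibits, was higher by 0.57 on the log2 scale in the authors' deposited table (standard error no larger than 0.17, adjusted p = 0.0298). Pde1c, a calmodulin-activated phosphodiesterase, was higher by 0.34 in the authors' deposited table (standard error no larger than 0.11, adjusted p = 0.0459). Pde1a stood at 0.44 with an adjusted p of 0.0979 and was not called there. The lowest log2 fold change of the list was that of Pde3a, a cGMP-inhibited phosphodiesterase of cardiomyocytes, at -0.50, and it was not called (adjusted p 0.204). The kinase Prkg1, the main cGMP effector of the heart and vessels, stood at 0.24 with an adjusted p of 0.709, again from the authors' deposited table. Markers of other cell types are given beside these values. All 5 macrophage markers lay above 0 with a median of 0.46, and Mrc1 (0.46) and F13a1 (0.51) were called higher in the authors' deposited table. That is 2 of 5, beside the 1.5% of all tested genes called higher. Of 7 smooth muscle and pericyte markers, 6 lay above 0 with a list median of 0.14, and Abcc9 was called lower, at -0.65. Over all tested genes 2.49% were called lower. Abcc9 had a mean of 11237 normalized counts, against 749 for Kcnj8 of the same list. Which cells the Abcc9 reads came from was not tested. The 5 fibroblast markers had no call and a median of 0.16. The part of these cells in the cGMP values was not tested.

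Peptide processing and clearance beyond Corin and Furin had no call in the authors' deposited table, and 0 had an unadjusted p bound under 0.05. Of 10 listed genes, 9 were tested, with a median of 0.05 and values from -0.09 to 0.49. The peptidase Dpp4 had the smallest adjusted p of the list in the authors' deposited table, 0.426, at a log2 fold change of 0.49. By adjusted p, Prep and Mme followed, with fold changes of 0.11 and 0.13 on the log2 scale, and then Galnt1 with -0.09. Neprilysin, encoded by Mme and the main peptidase that degrades natriuretic peptides, had an adjusted p of 0.744. Pcsk6, which activates corin, stood at 0.05 in the authors' deposited table, where its adjusted p was 0.962. Ostn, whose product binds Npr3, had 1.28, 2.22 and 4.49 normalized reads in B1, B2 and B3, against 0, 1.26 and 1.65 in A1, A2 and A3. These groups overlapped, and Ostn had no adjusted p.

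Transcription factors with known sites near the natriuretic peptide genes had no call among 16 tested. An unadjusted p bound under 0.05 was found for 3 of them, with no share over all tested genes computed. Besides Tbx5, those with the smallest adjusted p were Srf at -0.45 (adjusted p 0.0670), Tead1 at 0.59 (0.263) and Nkx2-5 at -0.51 (0.353) in the authors' deposited table. Gata4 stood at 0.04 with an adjusted p of 0.974, likewise from the authors' deposited table. Load-responsive genes, often measured with Nppb, were called in both directions. Of 10 tested, 3 were lower and 1 higher in group B, against 2.49% lower and 1.5% higher among all tested genes. The growth factor Ctgf was lower at -0.98, Uchl1 at -0.59 and Actc1, the cardiac actin, at -0.55, and the LIM protein Fhl1 was higher at 0.74 in the authors' deposited table. Myh7, the beta myosin chain, stood at -0.16 and Ankrd1, a stretch-responsive nuclear protein, at -0.72, with adjusted p-values of 0.884 and 0.0934 in the authors' deposited table. Acta1, also uncalled, lay on the other side of 0, at 0.51 with an adjusted p of 0.159 there. In all, 8 of the 10 load-responsive genes lay below 0 and 2 above it.

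**Figure D5:**
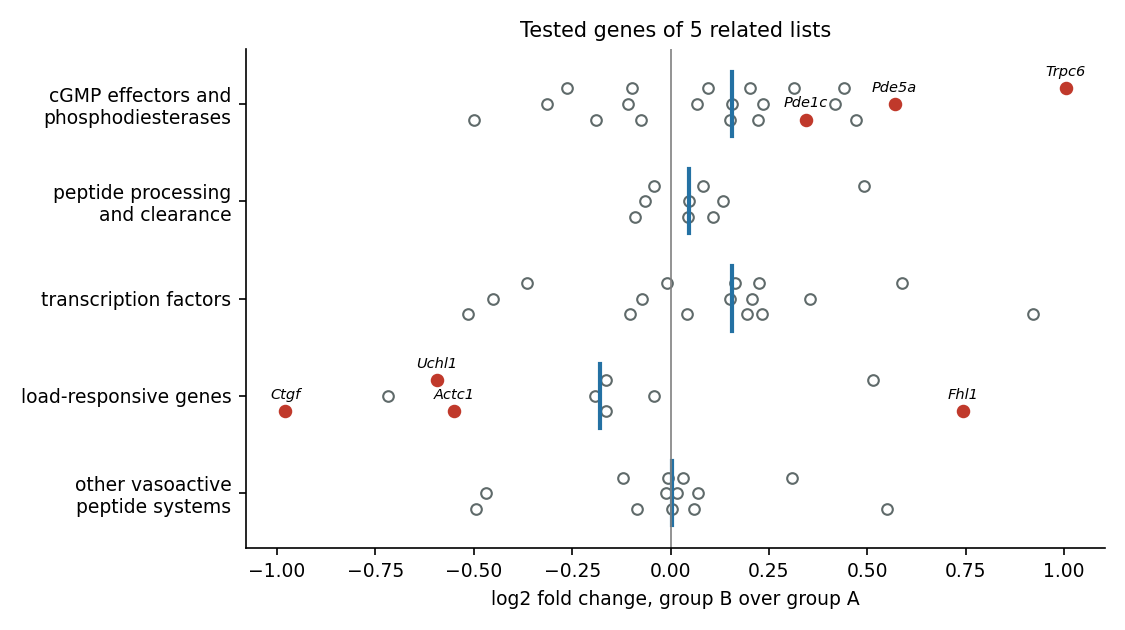
Log2 fold change of group B over group A for the tested genes of 5 lists related to the natriuretic system, from the authors' deposited table. Each circle is 1 gene, filled and named where called at an adjusted p under 0.05, and the blue lines are list medians; the cGMP list has 3 called genes to the right of 0 and the load-responsive list has called genes on both sides.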

How the data were processed

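The submitters' processing notes name build mm9, Bowtie2 2.0 and DESeq2, without saying what each did. The mean normalized count deposited by the authors is a signal averaged over the libraries of both groups after division by their size factors. Both the log2 fold change and the adjusted p-value are the authors' own, as deposited. Coordinates are given as GRCm38, because 69.6% of matched identifiers had identical coordinates in GENCODE M21. A standard error bound was computed as the fold change divided by the normal quantile of the largest p that the adjusted p allows. The file holds no count column, so the planned count test was not used. Reads per library were recovered for low genes from pooled means as the set of 6 whole numbers that gives the deposited mean within a relative tolerance of 5e-15. Genes with 1 read gave the step of each library and, by the sign of their fold change, its letter. Below a mean of 20, 10422 of 10424 genes had 1 solution; the recovery was tested on simulated data. Of 24 listed genes below a mean of 100, 19 had 1 solution. Nothing says that the libraries of a letter come from separate animals, so p-values cover the spread of libraries, which may be technical. The members and lists were chosen with earlier results of these data known. Named genes were the 8 members, Tbx5, every called gene and up to 4 with the smallest adjusted p per list, and 3 neighbours on each side of the Nppb and Nppa pair. Genes beyond these, such as Gata4, Pcsk6, Pde3a, Prkg1, Acta1, Ankrd1, Myh7 and further ventricular markers, were added after their values were seen. So were the library values of Bmp10, Sbk2 and Trpc6. Python 3.11.15 with scipy 1.17.1 was used. The values of 1 listed gene are not reported here.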

Additional observations from a re-analysis of the deposited data

How the results depend on the processing

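At an adjusted p under 0.01 the number of natriuretic genes called in the authors' deposited table was 0. An unadjusted p bound under 0.05 was found for 2 of them, with no share over all tested genes computed. Under an adjusted p of 0.1 the number called was 2, Nppb and Corin. Adjusted again over the 9880 genes with a mean of at least 100, Nppb had an adjusted p of 0.0125 and Corin 0.0569. Adjusted over the 12067 protein-coding genes, they had 0.0142 and 0.0627. The cGMP list had 0 calls under 0.01, and the transcription factor list had 2 under 0.1. Centring moved each of the 7 fold changes by less than its standard error bound, or the median bound of 0.20 for Nppa, and left every sign. The exact permutation p of Nppc ran from 0.2 to 1 without each library in turn. With 1 library left out no p under 0.2 was possible, so this range could not have shown a difference. Leaving out a library was not possible for the 7 other members, since their reads per library were not recovered, so whether the Nppb call rests on 1 library was not tested. The limma-voom fit of Nppc was not run because both groups were at or under the floor. Without each library the ratio of Trpc6 ran from 2.07 to 3.03 and that of Sbk2 from 0.27 to 0.40, an alternative chosen after seeing the data. No paired analysis was possible because the labels give each group 1 sample and the libraries carry no shared numbers.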

Other observations

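Other peptide systems that set vascular tone had no call in the authors' deposited table. Of 16 listed genes of the endothelin, adrenomedullin, apelin and angiotensin systems, 13 were tested, with a median log2 fold change of 0.00. Of these, 2 had an unadjusted p bound under 0.05, and the share of all tested genes under that bound was not computed. Adrenomedullin, encoded by Adm, stood at -0.47, and endothelin 1, encoded by Edn1, at -0.49, with adjusted p-values of 0.139 and 0.197 in the authors' deposited table. Ace, the angiotensin-converting enzyme, stood at 0.31, and the authors' deposited table gave it an adjusted p of 0.590. There Edn2 is listed at 0, and Agtr2 had 1 read in 1 library.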
